A study of Mus musculus with 6 samples.

Results

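Cd28, Ctla4 and Icos lie side by side on mouse chromosome 1 and encode related receptors of T cells. The accessible regions of this cluster were taken as every region of either deposited list that lay between 50 kb before the start of Cd28 and 50 kb after the end of Icos, a window of 384 kb (GRCm38, chr1:60666800-61050320, gene bodies of GENCODE vM21). The window held 102 of the 100771 regions of CREBfl/fl regulatory T cells (Tregs) and 102 of the 94499 regions of Foxp3creCREBfl/fl Tregs. Joined where they overlapped, these made 114 regions of 104845 in all. Of the 114, 84 were found in both lists, 16 in the CREBfl/fl list alone and 14 in the Foxp3creCREBfl/fl list alone.

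CD28 is the main costimulatory receptor of T cells and binds CD80 and CD86 on antigen-presenting cells, which together with the antigen receptor permits full activation and the maintenance of Tregs. CTLA-4 binds the same ligands more tightly, strips them from the presenting cell and is one of the molecules through which Tregs suppress, and it is a known target gene of Foxp3. ICOS binds its own ligand, signals mainly through phosphoinositide 3-kinase and marks activated and effector Tregs.

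Chromatin accessibility was measured by Omni-ATAC-seq, in which a transposase cuts open chromatin, on splenic Tregs of mice 6 to 12 weeks old. In Foxp3creCREBfl/fl mice, Cre recombinase made under the control of Foxp3 deletes the floxed Creb1 gene, which encodes the cAMP response element binding protein CREB, in Foxp3+ cells; CREBfl/fl mice carry the same floxed allele without Cre, and the labels call these groups KO and WT. The labels name 3 libraries per group and the study's methods speak of duplicates, but the files held 1 list of regions per group, so no value below has a spread between animals and no p-value is given. The cells were measured in bulk, so that a change in every cell and a change in the mix of Treg subsets cannot be told apart.

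The strength of a region is given as its summit pileup, the number of reads stacked at its highest point, and as a level, which is that pileup over the genome-wide background of its list (8.44 reads in CREBfl/fl and 5.09 in Foxp3creCREBfl/fl). Differences are log2 ratios of the levels, Foxp3creCREBfl/fl over CREBfl/fl, relative to the median of all shared regions, which was 0.15 before it was set to 0. Intervals are exact conditional binomial 95% intervals and cover counting error only. A region was called lower or higher when the ratio was at least 2-fold and at least 5 counting SDs from 0.

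The sequences of the regions that the results turn on are shown first (GRCm38, forward strand, 200 bases each), namely the bases just before the coding start of each gene and the bases around the summits of the distal regions that differed most. Capitals mark matches on either strand to the words searched, which are spelled out further on.
Cd28 promoter, chr1:60746158-60746357: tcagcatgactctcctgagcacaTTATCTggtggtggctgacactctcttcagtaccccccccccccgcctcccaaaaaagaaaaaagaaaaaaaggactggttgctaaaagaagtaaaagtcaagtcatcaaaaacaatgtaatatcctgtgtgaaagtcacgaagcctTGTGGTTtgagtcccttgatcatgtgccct
Ctla4 promoter, chr1:60908825-60909024: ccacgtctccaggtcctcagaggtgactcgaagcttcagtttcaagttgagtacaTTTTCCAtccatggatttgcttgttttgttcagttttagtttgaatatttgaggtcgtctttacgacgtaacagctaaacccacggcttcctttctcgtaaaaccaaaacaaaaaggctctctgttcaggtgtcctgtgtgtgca
Icos promoter, chr1:60977727-60977926: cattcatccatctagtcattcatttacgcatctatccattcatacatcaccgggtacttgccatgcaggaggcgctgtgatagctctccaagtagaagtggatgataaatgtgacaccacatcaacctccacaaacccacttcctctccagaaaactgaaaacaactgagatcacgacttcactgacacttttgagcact
Lower region upstream of Ctla4, chr1:60882893-60883092: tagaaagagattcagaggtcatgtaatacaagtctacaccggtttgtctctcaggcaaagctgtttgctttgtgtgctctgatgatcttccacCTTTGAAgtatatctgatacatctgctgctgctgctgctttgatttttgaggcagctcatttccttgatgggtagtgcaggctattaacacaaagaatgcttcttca
Non-coding Ctla4 start, CREBfl/fl summit, chr1:60887107-60887306: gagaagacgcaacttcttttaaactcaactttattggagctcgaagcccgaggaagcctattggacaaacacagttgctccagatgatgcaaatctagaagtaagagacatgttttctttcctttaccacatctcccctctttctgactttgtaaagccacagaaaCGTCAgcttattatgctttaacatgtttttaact
Non-coding Ctla4 start, Foxp3creCREBfl/fl summit, chr1:60886583-60886782: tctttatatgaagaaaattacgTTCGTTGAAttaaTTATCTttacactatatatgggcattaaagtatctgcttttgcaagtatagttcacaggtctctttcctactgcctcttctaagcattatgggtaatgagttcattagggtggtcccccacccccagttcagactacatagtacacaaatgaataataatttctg
Foxp3creCREBfl/fl-only region after Ctla4, chr1:60929071-60929270: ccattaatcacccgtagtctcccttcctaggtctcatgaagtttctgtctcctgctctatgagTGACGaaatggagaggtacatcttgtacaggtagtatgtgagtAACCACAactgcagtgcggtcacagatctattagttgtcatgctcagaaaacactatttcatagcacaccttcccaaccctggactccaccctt
Higher region in Cd28, chr1:60749429-60749628: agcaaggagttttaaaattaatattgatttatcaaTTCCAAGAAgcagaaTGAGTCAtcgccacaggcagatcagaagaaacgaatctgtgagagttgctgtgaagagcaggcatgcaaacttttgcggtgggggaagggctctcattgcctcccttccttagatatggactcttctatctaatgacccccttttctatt

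The cluster was densely open in both genotypes. It held 26.6 regions per 100 kb in either list, against 3.83 per 100 kb of genome in the CREBfl/fl list and 3.59 in the Foxp3creCREBfl/fl list. Of the 114 regions, 33 had their summit in an intron of Cd28, Ctla4 or Icos, 4 in an exon of these genes, 11 in a non-coding gene or pseudogene and 66 between genes. In CREBfl/fl the 5 strongest were the promoters of all 3 genes, a region 32.2 kb after the Ctla4 start and a region at the far end of the non-coding RNA gene Gm11579, 30.8 kb after the Cd28 start. In Foxp3creCREBfl/fl the strongest was an intronic region of Ctla4 4.47 kb after the coding start (chr1:60913250-60913739), with pileups of 836 in CREBfl/fl and 583 in Foxp3creCREBfl/fl and a log2 ratio of 0.06 (-0.09 to 0.21).

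**Figure D1:**
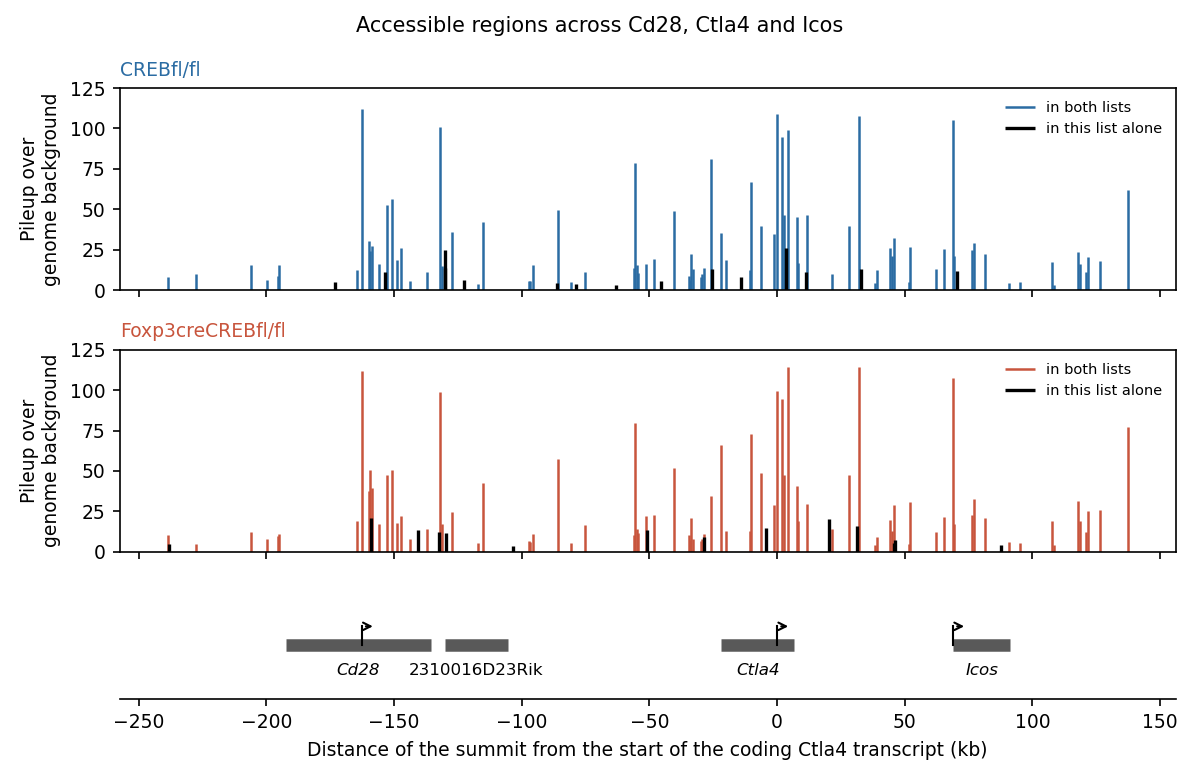
Level of each region of the cluster (summit pileup over the genome background of its list, vertical axis) against the distance of its summit from the start of the coding Ctla4 transcript in kb; the upper panel is the CREBfl/fl list, the middle panel the Foxp3creCREBfl/fl list, and the bars below are gene bodies with arrows at the coding starts. Black lines are regions found in that list alone, which are low beside the promoters of Cd28, Ctla4 and Icos, at 99.4 to 112 in both lists.

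Over the genome background, the promoters of Cd28 and Icos had nearly the same level in both genotypes, and that of Ctla4 was slightly lower in Foxp3creCREBfl/fl. At the Cd28 promoter (chr1:60745949-60746574, over the first exon) the pileup was 944 in CREBfl/fl and 569 in Foxp3creCREBfl/fl, levels of 112 and 112 and a log2 ratio of -0.15 (-0.30 to 0.00). At the Icos promoter (chr1:60977688-60978040) the pileup was 888 and 547, levels of 105 and 107 and a log2 ratio of -0.12 (-0.27 to 0.04). At the Ctla4 coding promoter (chr1:60908815-60909277) the pileup was 922 and 506, levels of 109 and 99.4 and a log2 ratio of -0.28 (-0.44 to -0.13). Of these 3 intervals the one of Ctla4 left out 0, and none of the promoters was called. The order of the levels was Cd28, Ctla4, Icos in CREBfl/fl and Cd28, Icos, Ctla4 in Foxp3creCREBfl/fl, with counting intervals that overlapped between neighbours. The differences were of the size of the scaling. With no shift to the median, the ratio of Ctla4 was -0.14 (-0.30 to 0.02), that of Cd28 was 0.00 and that of Icos turned to 0.03. Over the local background, the ratio of Cd28 was -0.33 (-0.48 to -0.18), that of Ctla4 -0.14 (-0.30 to 0.02) and that of Icos 0.02 (-0.14 to 0.17). The promoter whose interval left out 0 thus changed with the background used.

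Each of these promoters was among the stronger regions of its list. Their pileups exceeded those of 95.6% to 96.2% of all CREBfl/fl regions, and of 84.3% to 86.1% of all promoter regions, those within 1 kb of a start site of a protein-coding gene. In Foxp3creCREBfl/fl they exceeded 93.4% to 94.8% of all regions and 77.4% to 81.4% of promoter regions. A weaker region in the first intron of Icos (chr1:60978089-60978276), within 1 kb of the start, had pileups of 178 and 88 and a log2 ratio of -0.44 (-0.82 to -0.06). Within 1 kb of the Cd28 start a narrow region of the CREBfl/fl list alone (chr1:60747164-60747268) had a deposited fold of 1.73 over the local background, and its pileup could not be recovered.

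The largest difference among the 84 shared regions of the cluster lay upstream of Ctla4. The region chr1:60882767-60883143, whose summit was between genes, 26.0 kb before the coding start of Ctla4 and 4.01 kb before the start of its longer non-coding transcript, had a pileup of 684 in CREBfl/fl and 176 in Foxp3creCREBfl/fl. Its level thus went from 81.0 to 34.6, from near the promoters' level to well below it, and its log2 ratio was -1.38 (-1.63 to -1.14), 2.60-fold lower. The summit stood at the same base, chr1:60882993, in both lists, and the region was narrower in Foxp3creCREBfl/fl, 197 bases against 377. It was the only region of the cluster called lower, 1 of 84 shared regions against 0.117% of all 82004, and ranked 66 from the lowest ratio among all of them. The SD of the log2 ratio among shared regions of like pileup was 0.20.

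Next to it, the region at the non-coding start of Ctla4 differed the other way. This region (chr1:60886546-60887418), which spans that start, had a pileup of 299 in CREBfl/fl and 337 in Foxp3creCREBfl/fl, although the CREBfl/fl list was the deeper. Its level went from 35.4 to 66.2, a log2 ratio of 0.75 (0.52 to 0.98), 1.69-fold higher and short of the 2-fold that a call asks for. Its summit lay after the start in CREBfl/fl (chr1:60887207) and before it in Foxp3creCREBfl/fl (chr1:60886683), 524 bases apart. Of 74536 shared regions with a single peak in each list, 0.102% had summits at least 500 bases apart, as did 0.307% of the 17565 promoter regions among them, and of the 78 in the cluster this was the 1. The 2 lists therefore give the height of different points of this region, and its ratio does not compare the same bases.

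Other shared regions near this pair had an interval below 0 or one that spanned 0. The regions that start at chr1:60875255, chr1:60879326, chr1:60879484 and chr1:60880213 had ratios of -0.26, -0.46, -0.40 and -0.44, and each interval spanned 0. A region 33.0 kb before the coding start (chr1:60875944-60876107) had pileups of 113 and 40 and a log2 ratio of -0.92 (-1.48 to -0.39). Joined with its neighbours within 200 bases, a choice made after the data were seen, its ratio was -0.26 (-0.62 to 0.08). A region 2.06 kb after the non-coding start (chr1:60888731-60889144) had pileups of 158 and 65 and a log2 ratio of -0.70 (-1.14 to -0.28). A region of the CREBfl/fl list alone lay 284 bases from the called region (chr1:60883428-60883586, pileup 109), and a region of the Foxp3creCREBfl/fl list alone lay 28.5 kb before the coding start (chr1:60880435-60880593, pileup 47). Closer to the coding start the differences were smaller, with -0.02 (-0.21 to 0.17) at 10.1 kb before it, 0.15 (-0.09 to 0.39) at 6.43 kb and -0.43 (-0.73 to -0.14, pileups 295 and 146) at 1.34 kb. Within the body of Ctla4 downstream of the coding start the shared regions had ratios from -0.15 to 0.06, and each interval spanned 0.

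**Figure D2:**
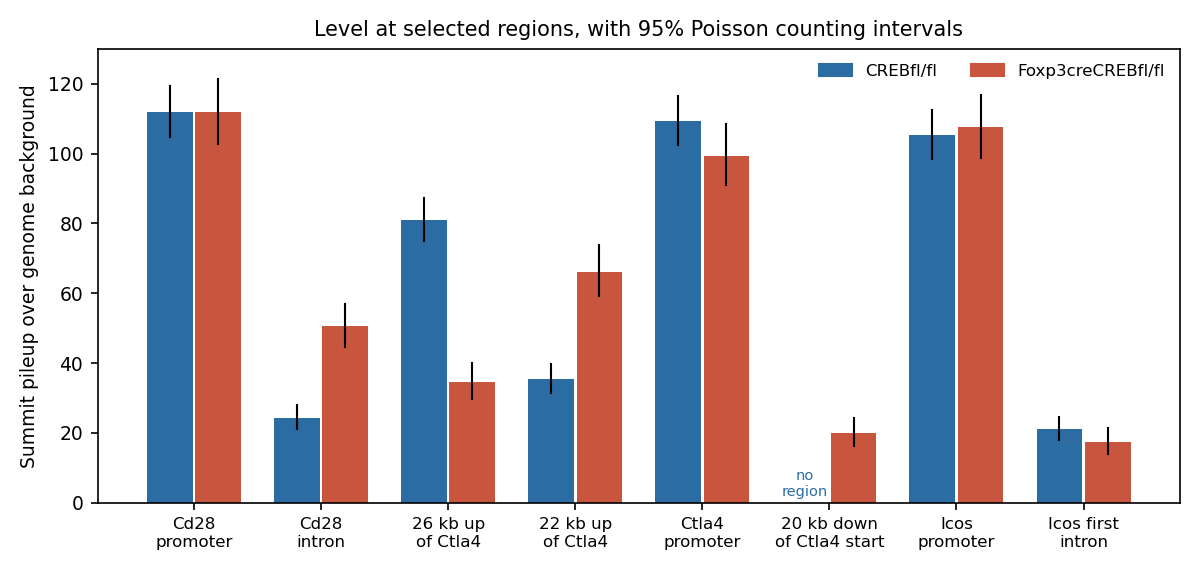
Level (summit pileup over genome background, vertical axis starting at 0) of 8 regions in CREBfl/fl (blue) and Foxp3creCREBfl/fl (red), with 95% Poisson counting intervals as black lines; levels are before the shift to the median. The 3 promoters have overlapping intervals, and the region 26 kb upstream of Ctla4 goes from 81.0 to 34.6. The bars of the region 22 kb upstream, at 35.4 and 66.2, are heights at summits 524 bases apart and do not compare the same bases.

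Within Cd28, 2 of the shared intronic regions in the first kilobases after the promoter had an interval above 0. The region chr1:60749337-60749647, 3.17 kb after the coding start, had pileups of 205 and 257 with the summit at the same base, levels of 24.3 and 50.5 and a log2 ratio of 0.91 (0.64 to 1.18), the highest of the cluster. Joined with its neighbours within 200 bases, its ratio was 0.59 (0.33 to 0.85). As deposited it was 1.87-fold higher, just under the fold of a call; 0 of the 84 shared regions were called higher, against 0.0829% of all. A Foxp3creCREBfl/fl-only region lay 93 bases after it (chr1:60749741-60749867, pileup 107), and the next one (chr1:60750396-60750723) had a summit of 231 against 201 reads, at 0.38 (0.10 to 0.66). The shared regions on either side of these, chr1:60749020-60749246 at 2.78 kb (pileups 255 and 190) and chr1:60753130-60753251 at 6.81 kb (139 and 89), had intervals that spanned 0, at 0.16 (-0.12 to 0.43) and -0.06 (-0.46 to 0.33). A region 1.87 kb before the coding start (chr1:60744446-60744549) reached 104 reads in CREBfl/fl and 98 in Foxp3creCREBfl/fl, at 0.49 (0.08 to 0.91). From 9.72 to 15.3 kb after the start the order turned, with ratios of -0.29 (-0.53 to -0.07, pileups 444 and 242) at 9.72 kb, -0.30 (-0.52 to -0.08, pileups 475 and 258) at 12.0 kb and -0.37 (-0.71 to -0.04, pileups 219 and 113) at 15.3 kb. The region at 13.7 kb had a ratio of -0.19 (-0.58 to 0.19). Further in, the ratios were 0.26 (-0.38 to 0.89) at 18.8 kb and 0.20 (-0.27 to 0.65) at 25.6 kb, and both intervals spanned 0. Of the 12 shared regions of Cd28, 3 intervals lay above 0 and 3 below, and the median ratio was 0.05.

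Between Ctla4 and Icos, 6 of the 16 shared regions had an interval below 0, 10 had one that spanned 0 and 0 one above it. None was called, and the median ratio was -0.27 (-0.58 to 0.02). The region 11.6 kb after the Ctla4 start (chr1:60920533-60920856) reached 392 reads in CREBfl/fl and 152 in Foxp3creCREBfl/fl, at a log2 ratio of -0.79 (-1.07 to -0.51), and over its local background the ratio was -0.39 (-0.67 to -0.12). Neighbouring regions at 44.1 and 44.9 kb (chr1:60952987-60953344 and chr1:60953675-60954005) had pileups of 221 and 99 and of 179 and 67, with ratios of -0.58 (-0.93 to -0.23) and -0.84 (-1.26 to -0.42). The strongest region of the interval, 32.2 kb after the start (chr1:60940825-60941546), reached 909 and 580 reads, at -0.07 (-0.22 to 0.08). The remaining 3 intervals below 0 there were chr1:60916311-60916809 (pileups 384 and 207, -0.31), chr1:60948052-60948502 over the pseudogene Gm11582 (107 and 47, -0.61) and chr1:60974127-60974546, 3.51 kb before Icos (213 and 110, -0.37). Over the local background, the intervals of these 3 regions and of chr1:60952987-60953344 spanned 0.

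The same interval held the region of the Foxp3creCREBfl/fl list alone that stood highest above the calling level. At chr1:60929027-60929410, 20.1 kb after the coding start of Ctla4 and 13.3 kb after the end of the gene, the Foxp3creCREBfl/fl list had a region with a pileup of 102, 11.3-fold over its local background in the deposited file, and the CREBfl/fl list had none. At the same accessibility the CREBfl/fl list would have had a pileup of 153, where 27 would have sufficed for a region, so the region was at least 5.87-fold higher if the CREBfl/fl pileup lay under that level. By pileup it ranked 79 among the 6244 Foxp3creCREBfl/fl-only regions. A shared region 21.6 kb after the start (chr1:60930402-60930967) reached 83 and 71 reads, at 0.36 (-0.12 to 0.83).

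Most regions of a single list lay near the level at which a region is called. The 16 CREBfl/fl-only regions were 15.7% (Wilson 95% interval 9.89% to 24.0%) of its 102 regions, against 16.4% over the genome, and the 14 Foxp3creCREBfl/fl-only regions were 13.7% (8.36% to 21.7%) against 6.61%. The first share was thus at the background and the second above it. Of the 14, 7 lay within 200 bases of another region of the cluster, as did 4 of the 16. When regions of a list within 200 bases were joined, a choice made after the data were seen, 8 Foxp3creCREBfl/fl-only and 13 CREBfl/fl-only regions were left. The shares over the genome are not given for these counts, so they cannot be set against 6.61% and 16.4%. At equal accessibility 12 of the 14, and 12 of the 15 CREBfl/fl-only regions with a pileup, would have had from 1 to 2 times the pileup needed for a region in the other list. The exceptions beside the one after Ctla4 were chr1:60768166-60768440 in an intron of Cd28 (pileup 70, Foxp3creCREBfl/fl) and, in CREBfl/fl, chr1:60778834-60779004 at the start of the non-coding RNA gene 2310016D23Rik (pileup 210), chr1:60786474-60786625 in an intron of that gene (pileup 56) and chr1:60735940-60736101 in an intron of Cd28 (pileup 44).

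The remaining Foxp3creCREBfl/fl-only regions had pileups of 20 to 82 and started at chr1:60670774, chr1:60776475, chr1:60779282, chr1:60805587, chr1:60857965, chr1:60904660, chr1:60940100, chr1:60954682, chr1:60955206 and chr1:60996668. The remaining CREBfl/fl-only regions had pileups of 26 to 221 and started at chr1:60755576, chr1:60779120, chr1:60822666, chr1:60830041, chr1:60845797, chr1:60863299, chr1:60894668, chr1:60912660, chr1:60920214, chr1:60941913 and chr1:60979258. The strongest of these, in a coding exon of Ctla4 (chr1:60912660-60912743, pileup 221), stood on a high local background and was 1.53-fold over it in the deposited file.

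Over the whole cluster, more intervals lay below 0 than above. The interval lay below 0 in 22 of the 84 shared regions, 26.2% (18.0% to 36.5%), against 7.88% of all shared regions. It lay above 0 in 5, 5.95% (2.57% to 13.2%), against 5.47%. With the local background 16 intervals lay below 0 and 5 above, and the shares over all regions are not given for that setting. Strong regions have narrower intervals, and among regions with a geometric mean pileup of at least 100 the shares were 15 of 51 below 0 against 11.4%, and 5 of 51 above 0 against 6.69%. The median ratio of the cluster was -0.07 (-0.19 to -0.02 by order statistics), against 0 over all shared regions. The interval of the median reached past 0 with the local background (-0.13 to 0.06), a −log10 q of at least 10 (-0.23 to 0.05), flanks of 100 kb (-0.17 to 0.02) and joined regions (-0.23 to 0.01). Without the shift to the median the cluster's median was 0.079, and 10 intervals lay below 0 and 14 above, so that the excess of lower regions holds relative to the other regions of the genome. Neighbouring regions share the same libraries and chromatin and are not independent of each other.

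**Figure D3:**
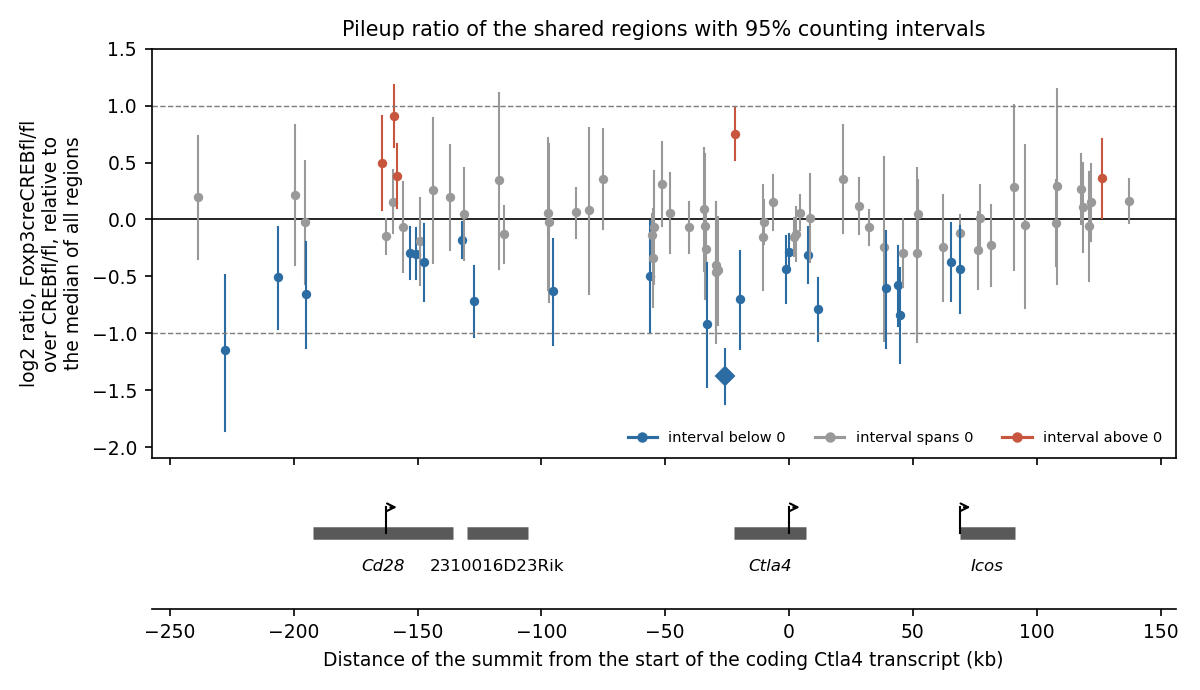
Log2 ratio of the levels, Foxp3creCREBfl/fl over CREBfl/fl, relative to the median of all shared regions (vertical axis), with exact conditional binomial 95% counting intervals as lines, for the 84 shared regions of the cluster against the distance of the summit from the start of the coding Ctla4 transcript in kb. The diamond is the region called lower, at -1.38; 22 intervals lie below 0 and 5 above, and dashed lines mark 2-fold.

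By position, the counts of lower regions were as follows, with no test between the stretches and with wide, overlapping Wilson intervals. In the 50 kb before Cd28, 3 of 6 shared regions had an interval below 0, with ratios of -1.15 (chr1:60681255-60681481, pileups 83 and 25), -0.51 (chr1:60702678-60703055, 134 and 63) and -0.65 (chr1:60713697-60714200, 134 and 57). Between Cd28 and Ctla4, 6 of 26 were below 0 and 0 above, with a median of -0.10. Beside those given above, they were the region at the end of Gm11579 (chr1:60776903-60777675, pileups 853 and 503, -0.18, which moved both ways with the summit and background used), that at the start of this gene (chr1:60781468-60782028, 305 and 124, -0.72), chr1:60813483-60813739 (132 and 57, -0.63) and chr1:60852917-60853051 (114 and 54, -0.50). In the body of Icos 1 of 5 was below 0 and 0 above. In the 50 kb after Icos 0 of 9 were below 0 and 1 was above, chr1:61035100-61035801 where the summit held 155 and 133 reads, at 0.36 (0.01 to 0.70), and the median was 0.15.

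**Figure D4:**
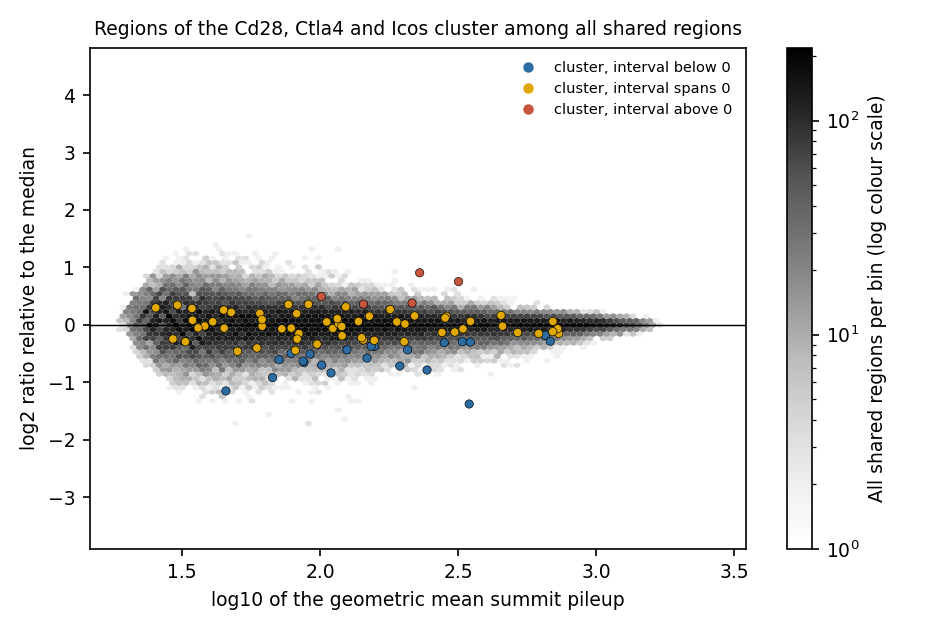
Log2 ratio relative to the median (vertical axis) against the log10 of the geometric mean summit pileup (horizontal axis) for all 82004 shared regions with a ratio (grey, darker where more regions fall) and for the 84 of the cluster (coloured by interval). The called region upstream of Ctla4, at -1.38, and the regions at 0.91 in Cd28 and 0.75 at the non-coding Ctla4 start lie away from the dense grey band.

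The full cAMP response element was rare in all regions and was not found in those of the cluster. In the 200 bases around the highest summit, the element TGACGTCA was found in 0 of the 114 regions and in 0.790% of all regions, and over the whole length of the regions it was also found in 0. At so low a share, 0 of 114 shows no difference from all regions. A control palindrome of the same bases was likewise found in 0 of the 114 windows and in 0.784% of all. Its half-site TGACG was found in 9 regions (7.89%, all regions 12.2%), which included the CREBfl/fl summit of the non-coding Ctla4 start, the Foxp3creCREBfl/fl-only region after Ctla4 and the first intron of Icos. The called region upstream of Ctla4 had a half-site 214 bases before its summit, outside the window printed above. The AP-1 word (TGACTCA or TGAGTCA) was found in 12 regions (10.5%, all regions 8.35%), among them the higher region of Cd28 and the lower regions 33.0 kb before and 11.6 kb after the Ctla4 start, so it occurred on both sides of 0.

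Of the other words, matched on both strands, the RUNX word TGTGGTT was found in 16.7% of the cluster's regions and 9.84% of all, and the GATA word AGATAA in 16.7% and 9.65%. The ETS words CAGGAAG or CCGGAAG were found in 15.8% and 22.5%, the STAT word TTCNNNGAA in 10.5% and 6.56%, and the TCF/LEF word CTTTGAA in 5.26% and 5.17%. The NFAT word TGGAAAA was found in 4.39% and 4.24%, the forkhead word TGTTTAC in 1.75% and 3.0%, the NF-kB word GGANTTTCC in 0.877% and 1.22%, and a control palindrome, TGAGCTCA, in 0 and 0.784%. The median GC content of the windows was 44.8% in the cluster and 49.0% in all regions. In the 200 bases before the coding starts, printed above, Cd28 had a RUNX and a GATA word, Ctla4 an NFAT word and Icos none of the words; these 3 words were in 3.49%, 7.80% and 4.61% of the same 200 bases of 32851 RefSeq promoters (GRCm38.p6). The full element contains the half-site, and a match of letters is not evidence of binding.

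At other genes of the costimulation pathway the share of lower regions was near that of all regions. The regions within 10 kb of 27 further genes of receptors, ligands and signalling proteins numbered 384 in both lists; 0 were called lower and 0 higher, 33 intervals (8.59%) lay below 0 and 21 (5.47%) above, and the median ratio was 0.01. Measured the same way, the median was -0.28 over 17 shared regions of Ctla4, -0.22 over 9 of Icos and -0.04 over 18 of Cd28, and the medians of Ctla4 and Icos were the 2 lowest of the genes with at least 3 shared regions. Next came Pik3r1, the regulatory subunit of phosphoinositide 3-kinase (-0.17 over 23 regions), and Ptpn11, the phosphatase SHP2 (-0.13 over 7). The highest medians were those of Ppp2ca, a catalytic subunit of the phosphatase PP2A (0.26 over 5), Bcl10, an adaptor of NF-kB activation (0.25 over 5), and Cd274, the ligand PD-L1 (0.21 over 12). They were followed by Lrba, which protects CTLA-4 from lysosomal degradation (0.16 over 19), the adaptor Gab2 (0.07 over 6) and the inhibitory receptor Pdcd1 (0.07 over 9). Single genes departed from the pooled shares. In Pik3r1, 6 of 23 intervals lay below 0 and 0 above, and in Bcl10, 0 of 5 lay below 0 and 3 above. No test of the difference between these genes was made.

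The cluster lies near the gene that was deleted. Creb1 starts 3.53 Mb after the end of Icos on the same chromosome. Within 10 Mb of Creb1, 12 of 715 shared regions were called (8 lower and 4 higher, 1.68%), against 19 of 4839 on the rest of chromosome 1 (0.393%) and 133 of 76450 on the other chromosomes (0.174%). The called region upstream of Ctla4 is 1 of the 8, and what part nearness to Creb1 has in its difference was not tested. At Creb1 itself the promoter region (chr1:64531987-64533214) reached 1065 and 757 reads, at 0.09 (-0.05 to 0.22). Of the 18 regions within 10 kb of Creb1, 10 were shared with ratios from -0.25 to 0.55, and the sequence that Cre removes was not identified here.

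The lists bore the marks of Tregs. All 7 Treg and T cell marker promoters, those of Foxp3, Il2ra, Ikzf2, Ikzf4, Tnfrsf18, Cd4 and Cd3e, held a region in both lists, with levels of 38.3 to 116 in CREBfl/fl and 30.6 to 121 in Foxp3creCREBfl/fl. Of the 4 B cell genes 2 had a promoter region in each list, Ms4a1 at 3.08 and 7.47 and Pax5 at 19.8 and 26.1, and Cd79a had none. Of the 4 myeloid genes 2 had one, with Lyz2 and Csf1r at none and Spi1 at 41.1 and 54.0; of the 4 genes of CD8 and NK cells 2 had one, with Cd8a and Ncr1 at none; and of the 4 erythroid genes 3 had one, with Hba-a1 at none and Klf1 at 66.8 and 75.2. The part of other cells in the results of the cluster was not tested.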

How the data were processed

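Omni-ATAC-seq libraries of splenic Tregs were sequenced by the authors, 3 per group by the labels. The submitters' notes name Trim Galore, Bowtie2, SAMtools and mm9, and duplicates were removed by the authors; the files' positions are those of GRCm38, since 0 regions ran past a chromosome end and 53.2% and 52.6% of 93472 protein-coding start sites had a region within 1 kb (14.7% and 13.8% after a move of 100 kb). The deposited files were MACS2 narrowPeak lists, 1 per group. How the libraries of a group were combined into its list is not stated in the study's methods or the labels. The deposited columns hold a score, a fold (ratio of pileup to local background), −log10 p-values and −log10 q-values. No list gives a depth in reads.

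The summit pileup and background were recovered from the deposited fold and −log10 p (pileup plus 1 over background plus 1, Poisson tail), within 0.002, for all but 59 CREBfl/fl and 24 Foxp3creCREBfl/fl regions. Regions sharing at least 1 base were joined, and the highest summit was used. The local background was the genome's in 32.6% and 29.6% of regions. The calling level of the other list was the lowest pileup that reached that list's smallest −log10 p at the scaled background. The steps were tested on simulated data. The intervals treat reads as independent counts and, with 1 list per group, cover counting error only. Where reads are not independent molecules, the intervals are too narrow even for that.

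The members and gene lists were chosen with earlier results of these data known. Named were the 3 genes, each of their promoter regions, each region of a single list, each region whose interval left out 0, the 5 strongest regions, Creb1, and the pathway genes with the 6 lowest and 6 highest medians, some of which are not reported here. Genes of like pattern were not named, since 2 lists give no pattern across samples. Alternatives covered the overlap, the q-value, the flank, the shift, the summit, the background and, added later, joining of near regions. Python 3.11.15, numpy 2.4.6, scipy 1.17.1, pandas 2.3.3 and matplotlib 3.10.9 were used.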

Additional observations from a re-analysis of the deposited data

How the results depend on the processing

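No paired analysis was possible because the labels' replicate numbers belong to libraries, while the files hold 1 list per group, and no library could be left out for the same reason. As reported, the 27 further pathway genes had 79 CREBfl/fl-only regions (16.8%, genome 16.4%) and 37 Foxp3creCREBfl/fl-only regions (8.28%, genome 6.61%). Asking for an overlap of 50% of both regions raised the cluster's regions of a single list to 26 and 26. It raised the Foxp3creCREBfl/fl-only regions of the pathway genes to 87. With a −log10 q of at least 10, 8 and 5 were left in the cluster and 16 and 3 at the pathway genes. Joining regions within 200 bases, chosen after seeing the data, left 8 Foxp3creCREBfl/fl-only regions in the cluster and 50 CREBfl/fl-only regions at the pathway genes. Shares over the genome are not given for these alternatives, so the counts show no difference from other regions. With no shift to the median, the median ratio turned to 0.079 in the cluster and was 0.16 at the pathway genes, 1 region was called higher, and 10 intervals lay below 0 and 14 above. With the local background, 1 region was called higher, the Cd28 promoter had a ratio of -0.33 and the non-coding Ctla4 start one of 1.09, and the region at the end of Gm11579 turned to 0.10, while with the mean pileup of its summits its ratio was -0.92 (-1.11 to -0.73). The local background also moved the region at the start of Gm11579 to -0.27 (-0.58 to 0.04), that at chr1:60916311 to -0.06 (-0.31 to 0.18) and that at chr1:60920533 to -0.39. The mean of the summits moved that at chr1:60761612 to -0.75. With the local background, the intervals of chr1:60755809, chr1:60758119, chr1:60761612, chr1:60948052, chr1:60952987, chr1:60974127 and chr1:60978089, below 0 as reported, spanned 0. Joining moved chr1:60875944 to -0.26. Over whole regions, the NFAT word was found in 8 regions, the NF-kB word in 3, the TCF/LEF word in 13 and the control palindrome in 2. The called region upstream of Ctla4 kept its sign and an interval below 0 in all 10 alternatives, with ratios from -1.39 to -1.15. The higher regions of Cd28 and of the non-coding start did so above 0, at 0.59 to 1.06 and 0.74 to 1.09. None of the alternatives compared the non-coding start at the same base in both lists. The cause of these changes was not tested. With no replicates, depth sets the intervals but not the spread between animals.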
